A study of Mus musculus with 6 samples.

Results

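Of 3090 cytosines that stayed unconverted in this RNA bisulfite sequencing (RNA BS-seq) series, 258 were nuclear-encoded, stood apart from other such cytosines, and did not have guanine at both the second and the third base downstream. The members were chosen by measured values: a minimum of 20 reads, of 6 unconverted reads, and of a 10% methylation level in both replicates of at least 1 time point. A position was kept when fewer than 3 other passing positions lay within 75 nt on the same strand, and when the 2 bases at +2 and +3 were not both guanine. The series comprised poly(A) RNA from primary cultures of cortical neurons, labelled as pooled male and female. The neurons came from E16.5 wild-type C57BL/6 embryos and were grown in vitro for several days before treatment. The neurons were silenced overnight with 1 μM tetrodotoxin and 100 μM DL-AP5 in all groups, and were harvested before KCl (0 h) or 2 h or 6 h after 55 mM KCl was added to depolarize them. There were 2 biological replicates per time point and 6 libraries. The remaining passing positions were 236 isolated nuclear sites with guanine at both +2 and +3, 1732 clustered nuclear positions, and 864 mitochondrial positions.

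Bisulfite converts unmodified cytosine, so that it is read as thymine, whereas 5-methylcytosine (m5C) is still read as cytosine. In mRNA, m5C is deposited mainly by enzymes of the NSUN family. NSUN2 methylates cytosines followed by guanines and is also a tRNA methyltransferase, and NSUN6 methylates the first cytosine of a CTCCA motif in stem-loop RNA. The methylation level used here was the share of unconverted reads among converted and unconverted reads. A cytosine left unconverted for another reason, such as RNA folding, is read in the same way.

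The sequences below show, 5′ to 3′ on the transcribed strand, 3 sites for each of the 3 most frequent triplets at +2 to +4, with the unconverted cytosine and the bases at +2 to +4 in capitals. These lines come from the deposited context, 21 nt with the site as the 11th base, and the sites were taken from those named by fixed rules to show how near to a guanine triplet they lie. The bases at +2 to +4 were GAG in the first 3, AGG in the next 3, and GAA, present in 17 members, in the last 3.
1810043G02Rik: cagaggaaaaCaGAGtcaaag
Psd: gctgggagcaCgGAGgatgga
Rptor: ctcagttctgCaGAGagcttc
Plxna3: ccttggagtgCaAGGaaggtg
Syn1: aacatgacttCcAGGatattg
Amz2: tctgcggaggCcAGGtgacag
Gprin2: gcctatcttaCgGAAgaaagt
Rnf157: gcccctcaagCaGAAgcaagt
Flna: agtgcctacgCaGAAataatt

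Although chosen for lacking the guanine pair, most of the members were not poor in guanine. Exactly 1 of the bases at +2 and +3 was guanine in 207 of 258 members (80.2%), compared with 44.1% of 1132445 background cytosines without the pair. Background cytosines were nuclear positions listed in both replicates of a time point with a level under 1%, which only deep coverage allows. At +4, which the rule did not use, guanine stood in 155 members (60.1%), in 53.0% of the isolated sites with the pair, and in 28.4% of the background. At +5 the shares were 34.5% and 26.4%, and at +6 they were 24.0% and 26.3%. At -2 guanine was less frequent in members (14.7%) than in the background (26.1%).

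The base that took the place of the missing guanine was mostly adenine. Among the 111 members with guanine at +2 only, 66.7% had adenine at +3, against 36.7% of background cytosines of the same kind. Among the 92 members with guanine at +3 only, 76.1% had adenine at +2, against 44.0% of the background. A purine at +2 and +3 followed by guanine at +4 was present in 104 members (40.3%) and in 7.83% of the background without the pair. The triplets GAG and AGG accounted for 48 members each, or 18.6%, while their background shares were 2.96% and 2.51%. At +1, 69.8% of members carried a purine, compared with 84.3% of the sites with the guanine pair and 42.8% of the background. These are descriptions of base shares, and the triplets were grouped after their frequencies were seen.

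**Figure D1:**
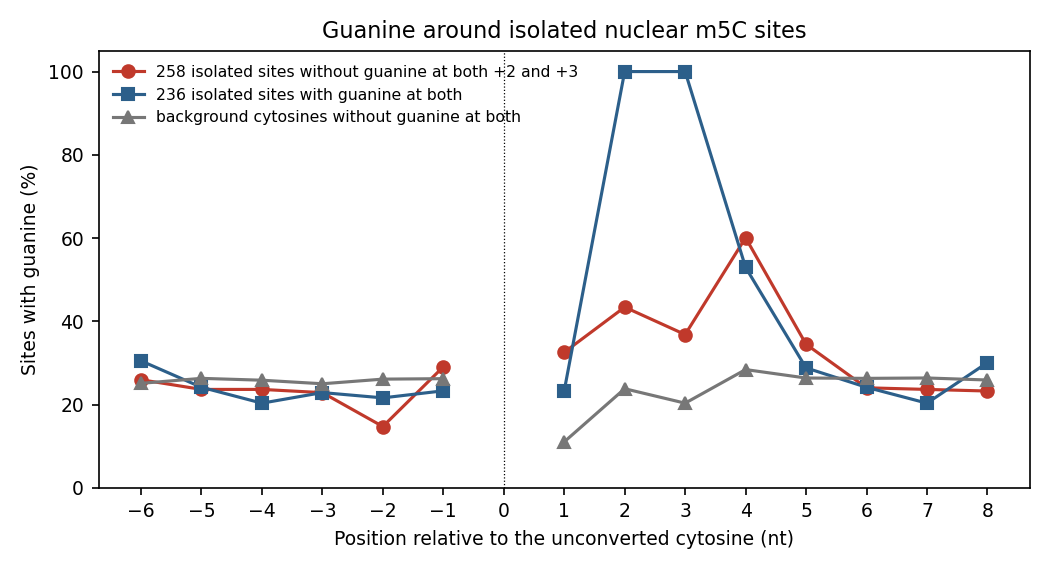
Share of sites with guanine (%) at each position from 6 nt before to 8 nt after the unconverted cytosine, for the 258 members (red circles), the 236 isolated sites with guanine at both +2 and +3 (blue squares), and background cytosines without the pair (grey triangles). The values of 100% at +2 and +3 in blue and the lower values there in red follow from the choice of sites, whereas the peak at +4 (60.1% and 53.0%) does not.

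By their bases, 111 members (43.0%) had guanine at +2 only, 92 (35.7%) had guanine at +3 only, and 37 (14.3%) had neither. These 3 classes left out 10 members (3.88%) with the NSUN6-type CTCCA motif and 8 members (3.10%) in short tandem repeats, defined as a unit of at most 6 nt that matched itself over 80% of the context. In every 20th background cytosine, the NSUN6-type motif made up 0.788% and tandem repeats 0.224%. In the class with no guanine at +2 or +3, guanine stood at +4 in 64.9% of 37, and in 27.9% of background cytosines without guanine there. That background still held CTCCA motifs and repeats, so the shares are not fully alike. Guanine stood at +4 in 0 of the 10 NSUN6-type members, whose motif has adenine there, and in 0 of the 8 repeat members.

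Levels chose the members and are therefore given as a description. The mean level over the libraries had a median of 14.6%, with quartiles of 10.3% and 26.7%. It was under 30% at 201 members and over 50% at 22. The isolated sites with the guanine pair had a median of 15.4%. Medians were 16.9% for guanine at +2 only, 12.8% for guanine at +3 only, 15.7% for neither, and 15.8% for the NSUN6-type motif. The median was 89.2% in the 8 tandem repeat members. The 3 members with the lowest qualifying level, in Ccny, Cnr1, and Kdm1a, had 10.0% in the lower replicate, and the 3 positions just outside, in Camk2n2, Cd24a, and Tgfa, had 9.9%. In all, 26 positions lay outside at 9% or more, and 30 members had a qualifying level under 11%.

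**Figure D2:**
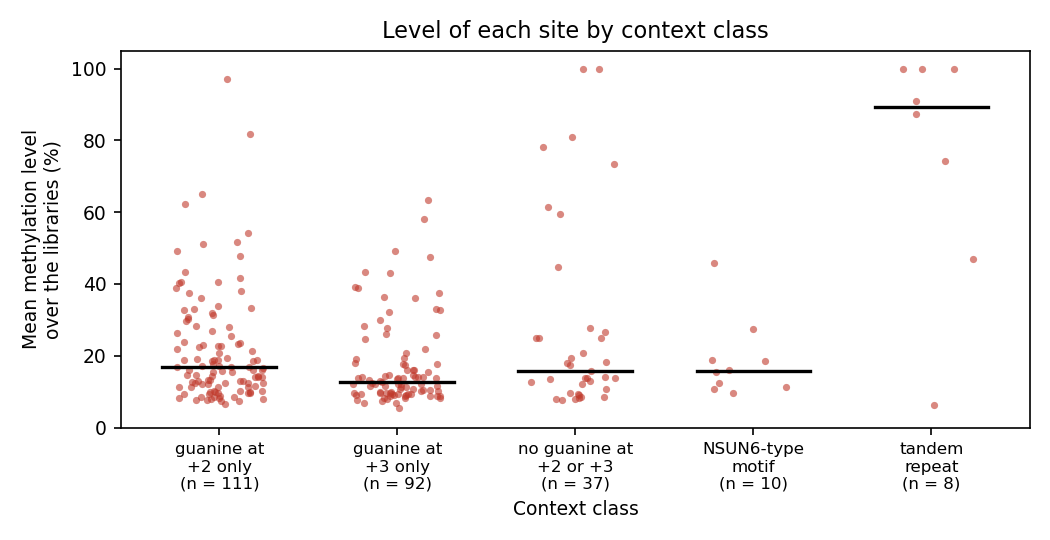
Mean methylation level (%) over the libraries in which a member was listed, by context class; each point is 1 of the 258 members and the line is the class median. Most members lie below 30%, and the tandem repeat class has a median of 89.2%.

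The highest levels were found in noncoding, coding, and untranslated positions. At 1810043G02Rik (GRCm38 chromosome 10, position 77979895, plus strand, a noncoding exon), the level was 100% and 95.2% before KCl, 98.4% and 97.9% after 2 h, and 91.3% and 100% after 6 h, with only 23 to 61 reads. All 6 libraries were thus above 90%, while cytosines nearby were at up to 11.1%. The CDS site of Rnf157, an E3 ubiquitin ligase (chromosome 11, position 116358680, minus strand), was covered by 647 to 1117 reads. Its levels were 67.9% and 72.0% before KCl, 88.3% and 87.5% after 2 h, and 87.6% and 87.0% after 6 h, so that the 0 h libraries lay below the others. In Znrf1, another E3 ubiquitin ligase, the 3′UTR site ranged from 76.3% to 87.1% (chromosome 8, position 111622094, plus strand). In Rabgap1l, a Rab GTPase-activating protein, the 3′UTR site (chromosome 1, position 160223413, minus strand) had 63.0% and 64.3% before KCl, 91.3% and 88.5% after 2 h, and 71.6% and 61.4% after 6 h. It was higher at 2 h by 26.3 points (adjusted p = 7.17e-12) and lower at 6 h than at 2 h by -23.4 points (adjusted p = 1.88e-07, both by Fisher's exact test on summed reads). The CDS site of Med24, a Mediator subunit (chromosome 11, position 98718053, minus strand), had 44.0% and 46.4% before KCl, 60.9% and 61.6% after 2 h, and 46.8% and 51.2% after 6 h, from 523 to 905 reads. Its 2 h libraries stood above the others by 16.1 points over 0 h (adjusted p = 6.51e-17, Fisher's exact test). The other members in the highest 10 with 20 reads in every library were in Plxna3 (a semaphorin receptor), Pabpc4 (a poly(A)-binding protein), Myo9b with 2 adjacent cytosines, and an intergenic repeat on chromosome 4. Plxna3 ranged from 50% to 71.8%, and Pabpc4 from 36.4% to 80% with as few as 22 reads, so that replicates spread widely.

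Some members with high levels lay in repeats or were thinly covered. All 3 members in an intron of Wwp2 (chromosome 8) were at 100% in all 6 libraries (chosen after their values were seen), and their lowest coverage was 10 reads. A pair of them and the intergenic repeat are shown, with the unconverted cytosine in capitals, for their repeat units of a few bases.
Wwp2, position 107454276: ccaaccaaacCaaaccaacca
Wwp2, position 107454281: caaaccaaacCaaccaaacca
Chromosome 4, position 38986168: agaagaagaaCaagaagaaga
The last context was also found at position 19371814 of chromosome Y, so that the 258 members had 257 distinct contexts.

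Members were spread over many genes. They lay in 222 genes, of which 16 held more than 1, and 233 were in protein-coding genes on the same strand. By GENCODE M21 on GRCm38, 101 were in the CDS, 85 in a 3′UTR, 26 in a 5′UTR, 13 in other exons, 14 in introns, 15 between genes, and 4 were only antisense to a gene. Of the 212 members in mRNA segments, 12.3% were in the 5′UTR, 47.6% in the CDS, and 40.1% in the 3′UTR. The sites with the guanine pair had shares of 10.3%, 46.6%, and 43.1%, and the background had 2.87%, 70.7%, and 26.5%. Among members with over 100 reads in both replicates, the 5′UTR share was 8.39% of 143. Of 97 coding members with a single reading frame, 41.2% were at the third codon position, compared with 23.2% of 95 coding sites with the guanine pair and 38.4% of the background. No test was made of these shares.

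Because levels chose the members, time points were compared only at positions that had passed at the time point left out. Reads of both replicates were summed, and Fisher's exact test (two-sided) was adjusted by Benjamini-Hochberg over all positions of the series tested, with an adjusted p of 0.05 as the limit. A position had to be listed with at least 10 reads in the 4 libraries compared, and a cytosine with no unconverted read was not listed. Between 3 and 13 members were missing per library, and 225 of 258 members entered at least 1 comparison. Differences are given in percentage points (points). In these bulk samples, fewer cells of a type and less RNA per cell cannot be told apart.

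After 2 h of KCl, many members had a higher level. Of 158 members that passed at 6 h, 146 could be compared between 0 h and 2 h, 69 of them (47.3%) were higher at 2 h and 0 were lower. Over all 2376 positions, 5.51% were called higher and 0.8% lower. The median difference was 6.75 points for members, with quartiles of 1.55 and 12.3, and 121 members were higher, 21 lower, and 4 equal. Library medians were 14.6% and 13.95% before KCl, against 22.1% and 22.7% after 2 h, and the groups did not overlap. Exact permutation of 2 against 2 libraries cannot go below p = 0.333, which was the value obtained. Sites with the guanine pair gave 62 higher and 2 lower of 136, with a median of 6.98 points. No position of 1323 clustered nuclear or 771 mitochondrial ones was called higher, but the clustered positions had a median level of 100% in all 4 libraries, where no rise can be measured. The difference between members and sites with the pair was not tested.

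At 6 h, members were called in both directions. Of 183 members chosen at 2 h, 51 (27.9%) were higher at 6 h than at 0 h and 9 (4.92%) were lower, against 6.32% higher and 2.62% lower of all 2135 positions. The median difference was 2.60 points, and library medians were 12.3% and 11.5% before KCl, against 15.8% and 14.2% after 6 h (exact permutation p = 0.333). From 2 h to 6 h, at 109 members chosen at 0 h, 39 (35.8%) were lower and 4 (3.67%) were higher, against 3.6% lower and 7.02% higher of all 2195 positions. The median difference was -2.70 points, with library medians of 28.4% and 27.9% at 2 h, against 23.6% and 21.8% at 6 h. Among mitochondrial positions in that comparison, 134 of 807 were higher and 10 lower, but their library medians (24.3% and 37.0% at 2 h against 47.9% and 20.6% at 6 h) overlapped between the time points (exact permutation p = 1). Among sites with the guanine pair, 55 of 184 were higher and 4 lower from 0 h to 6 h, and 5 of 92 were higher and 20 lower from 2 h to 6 h. The 20 members off the study's list that were compared between 0 h and 6 h had a median difference of -0.45 points, with 2 called higher and 1 lower. These comparisons share libraries and are not independent of each other.

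**Figure D3:**
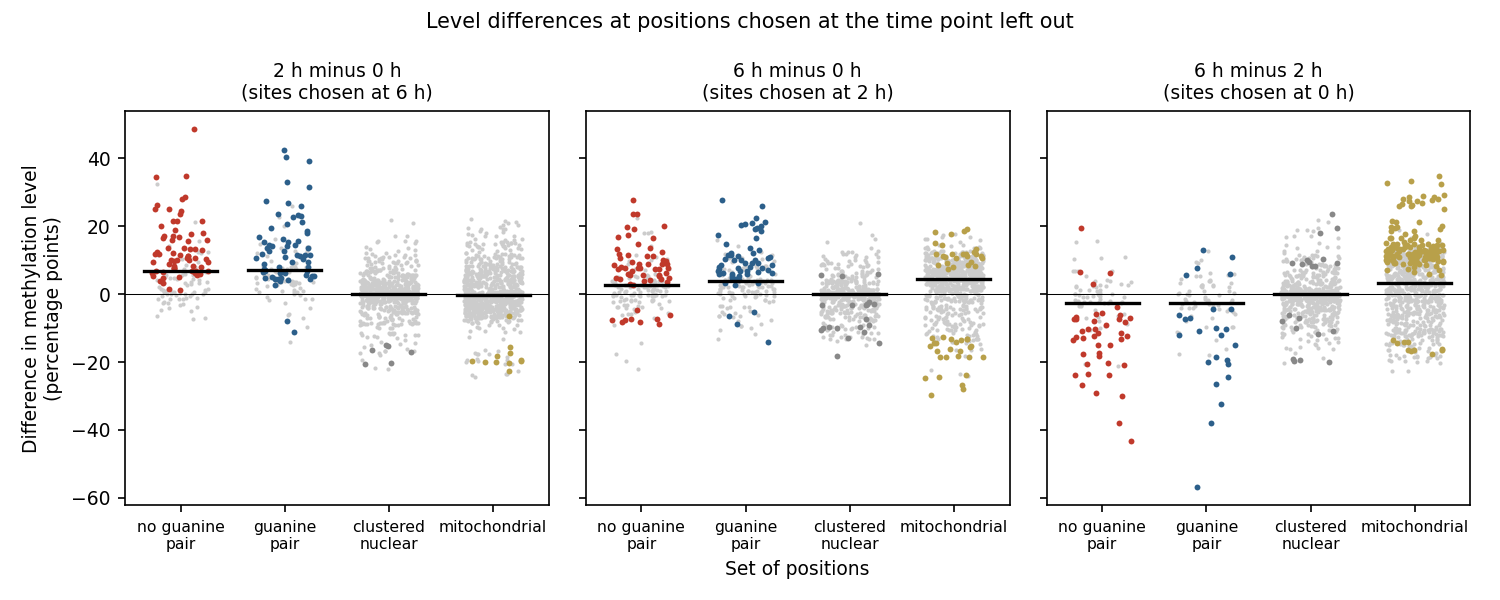
Difference in methylation level (percentage points) at each position tested in the 3 comparisons, by set of positions; larger, darker points passed an adjusted p of 0.05 by Fisher's exact test on summed reads, small light grey points did not, and black lines are medians. In the members (no guanine pair) the medians are 6.75, 2.60, and -2.70 points, and the clustered nuclear medians are 0.

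The same test between replicates of a time point gave a measure of the spread. Replicates differed at 1 of 222 members (0 h), 6 of 177 (2 h), and 17 of 211 (6 h), all of them members that passed at another time point. Over all positions of these comparisons, 0.335%, 3.59%, and 22.1% differed. Fisher's exact test takes no account of this spread, and limma, which does, called 0 members in each comparison over all positions. With the replicate number as a block, limma called 16 members for 0 h vs. 2 h and 0 in the others, and over the isolated nuclear positions only, an alternative chosen after seeing the data, it called 32, 0, and 2. At an unadjusted limma p under 0.05 there were 36 of 146 members for 0 h vs. 2 h, all of them higher, against 89 higher and 46 lower of all 2376 positions. For 0 h vs. 6 h, 14 were higher and 1 lower of 183, against 31 and 17 of 2135, and for 2 h vs. 6 h, 1 was higher and 13 lower of 109, against 38 and 35 of 2195.

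Members that rose were found in each of the larger context classes, and the shares over all positions given above (5.51% higher for 0 h vs. 2 h, 6.32% higher and 2.62% lower for 0 h vs. 6 h, and 3.6% lower for 2 h vs. 6 h) are the background of the counts that follow. For 0 h vs. 2 h, 32 of 66 members with guanine at +2 only were higher (median 7.63 points), 28 of 49 with guanine at +3 only (6.80 points), and 5 of 19 with neither (5.55 points). Of the members with a purine at +2 and +3 and guanine at +4, 30 of 65 were higher (7.5 points), against 39 of 81 others (6.40 points). At 6 h against 0 h, the 3 classes had 26 higher and 6 lower of 84, 20 and 1 of 67, and 3 and 2 of 23. By segment, 40 of 60 CDS members were higher at 2 h than at 0 h, 25 of 52 in the 3′UTR, and 3 of 15 in the 5′UTR. At 6 h against 0 h, 33 of 84 CDS members were higher and 4 lower, 14 and 4 of 64 in the 3′UTR, and 3 and 0 of 17 in the 5′UTR. Of the 35 3′UTR members compared from 2 h to 6 h, 21 were lower and 2 higher, while 0 of 14 in the 5′UTR were lower and 1 was higher. Differences between classes or segments were not tested.

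The largest rises from 0 h to 2 h were found at 2 3′UTR sites and 1 intergenic site. Gprin2 encodes a G protein-regulated inducer of neurite outgrowth, and its site lies on chromosome 14 at position 34188431 (minus strand). The level was 18.9% and 17.7% before KCl, 68.4% and 65.2% after 2 h, and 23.5% and 23.5% after 6 h. Both 2 h libraries were far above the others. The rise of 48.5 points had an adjusted p of 2.20e-20 and the fall from 2 h to 6 h of -43.3 points an adjusted p of 1.97e-11 (Fisher's exact test). The 95% Wilson interval of the first 2 h library was 55.5% to 79.0% from 57 reads. Such intervals cover counting error only, since PCR copies were not separated.

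Rptor encodes Raptor, a subunit of the mTORC1 kinase complex, and its site lies at position 119899079 of chromosome 11 (plus strand). The level was 37.2% and 25.2% before KCl, 65.7% and 66.3% after 2 h, and 26.4% and 29.6% after 6 h, so that the 2 h libraries stood apart. The rise was 34.8 points (adjusted p = 5.01e-11, Fisher's exact test) and the fall -38.0 points (adjusted p = 1.01e-12). The intergenic site on chromosome 3 at position 158082625 had 4.3% and 2.4% before KCl, 33.9% and 41.5% after 2 h, and 18.9% and 10.1% after 6 h. Its rise was 34.4 points (adjusted p = 9.23e-15, Fisher's exact test), and it was also higher at 6 h than at 0 h by 11.2 points (adjusted p = 0.0168).

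Other members kept their rise at 6 h. In Ccdc107, the CDS site (chromosome 4, position 43495356, plus strand) had 15.3% and 16.0% before KCl, 38.7% and 42.6% after 2 h, and 42.8% and 43.9% after 6 h. The difference between 6 h and 0 h was 27.7 points (adjusted p = 6.53e-52, Fisher's exact test), and that between 6 h and 2 h, 2.70 points, did not pass (adjusted p = 0.461). In Neurl1a, which encodes an E3 ubiquitin ligase of neurons, the CDS site (chromosome 19, position 47257448, plus strand) had 17.0% and 13.7%, 27.7% and 29.6%, and 40.5% and 37.6% at the 3 time points. Its difference between 6 h and 0 h was 23.7 points (adjusted p = 4.96e-08, Fisher's exact test). Rnf157 was higher than at 0 h by 17.95 points at 2 h (adjusted p = 1.68e-44) and by 17.4 points at 6 h (adjusted p = 1.58e-32, both Fisher's exact test).

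The site of Myo9b (chromosome 8, position 71359444, plus strand), an unconventional myosin, had 59.6% and 35.0% before KCl, 70.5% and 66.7% after 2 h, and 64% and 77.6% after 6 h, from 24 to 78 reads. The difference of 23.5 points (adjusted p = 0.0207, Fisher's exact test) did not pass without 0 h replicate 2 (11.2 points) or without 6 h replicate 2 (16.7 points). Its listed neighbours were at 5.33%, and the adjacent cytosine, itself a member, which the same reads cover, differed by 17.9 points and did not pass (adjusted p = 0.0750).

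The largest falls from 0 h to 6 h among called members with groups that did not overlap were smaller in size than these rises. In Flna, which encodes the actin crosslinker filamin A, the site lay in a noncoding exon (chromosome X, position 74226761, minus strand). It had 21.7% and 21.3% before KCl, 16.9% and 14% after 2 h, and 16.7% and 8.8% after 6 h. Both 6 h libraries lay below both 0 h libraries, with a difference of -8.75 points (adjusted p = 0.0136, Fisher's exact test). It did not pass without 0 h replicate 1 (-8.55 points), 0 h replicate 2 (-8.95 points), or 6 h replicate 2 (-4.80 points). The CDS site in Rapgef5 (chromosome 12, position 117689000, plus strand), a Rap guanine nucleotide exchange factor, had 29.8% and 30.5% before KCl, 46.3% and 38.3% after 2 h, and 18.9% and 24.7% after 6 h. From 2 h to 6 h it fell by 20.5 points (adjusted p = 1.19e-07, Fisher's exact test). From 0 h to 6 h it differed by -8.35 points (adjusted p = 0.0499), and did not pass without 0 h replicate 1 (-8.70 points), 0 h replicate 2 (-8.0 points), or 6 h replicate 1 (-5.45 points). In Elavl3, a neuronal RNA-binding protein, the 3′UTR site (chromosome 9, position 22016350, minus strand) had 12.8% and 22.8% before KCl, 12.6% and 16.0% after 2 h, and 8.5% and 10.7% after 6 h. It differed between 0 h and 6 h by -8.20 points (adjusted p = 0.0226, Fisher's exact test), but not past the limit without 0 h replicate 2 (-3.20 points) or 6 h replicate 1 (-7.10 points). Flna and Elavl3 did not pass the rule at 6 h.

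From 2 h to 6 h, the named rises were smaller in size than the named falls. The 5′UTR site of Ipo11 (chromosome 13, position 106936781, minus strand), a nuclear import receptor, had 15.1% and 10.6% at 2 h and 28.6% and 36.1% at 6 h from 28 to 93 reads. The difference of 19.5 points (adjusted p = 0.0254, Fisher's exact test) did not pass without either 2 h replicate (21.8 and 17.3 points without replicates 1 and 2) or either 6 h replicate (23.3 and 15.8 points). Psd, a guanine nucleotide exchange factor for ARF6 (chromosome 19, position 46312826, minus strand), was the most deeply covered of the named sites that rose, with 3688 to 4960 reads. Its levels were 46.4% and 47.0% before KCl, 48.3% and 51.8% after 2 h, and 55.8% and 57.2% after 6 h. The change of 6.45 points from 2 h to 6 h (adjusted p = 3.13e-15, Fisher's exact test) was smaller than most others named, and its Wilson interval in the first 6 h library was only 54.2% to 57.4%. The 3′UTR site of Amz2 (chromosome 11, position 109436806, plus strand), a metallopeptidase gene, had 10.8% and 11.5% before KCl, 13.5% and 11.9% after 2 h, and 16.0% and 15.4% after 6 h. From 2 h to 6 h it rose by 3.0 points (adjusted p = 3.77e-05, Fisher's exact test), and the 6 h libraries lay above the other 4. The 3′UTR site of Zbtb4 (chromosome 11, position 69779617, plus strand), a zinc finger protein, had 49.1% and 43.2% before KCl, 48.1% and 64.9% after 2 h, and 25.9% and 26.9% after 6 h. From 2 h to 6 h it fell by 30.1 points (adjusted p = 0.0114, Fisher's exact test), and did not pass without 2 h replicate 2 (-21.7 points) or 6 h replicate 1 (-29.6 points).

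**Figure D4:**
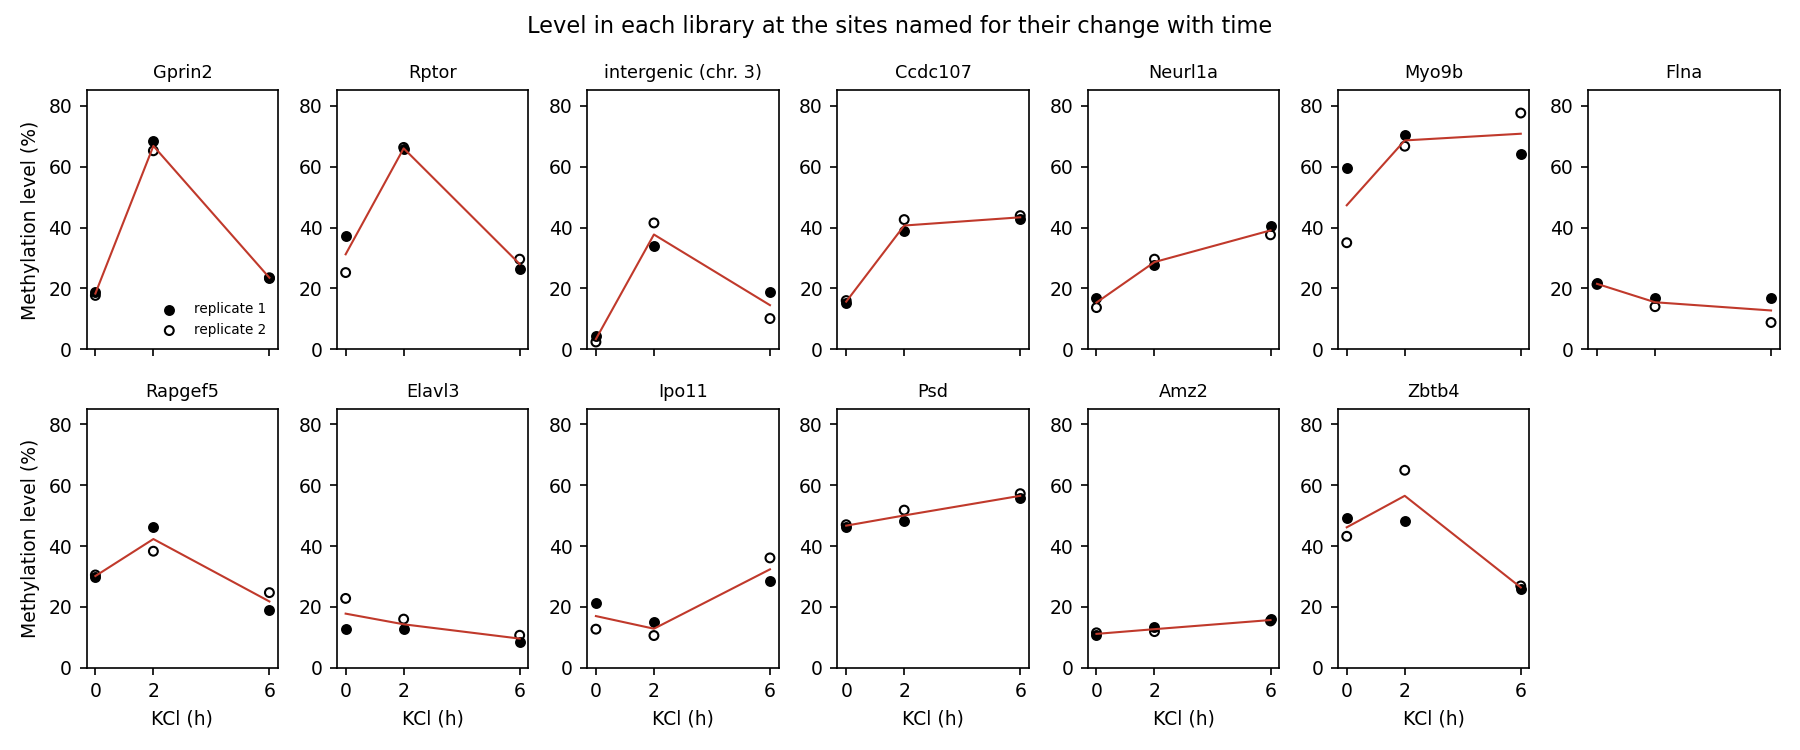
Methylation level (%) against hours of KCl at the 13 members named for the largest rises and falls; filled circles are replicate 1, open circles replicate 2, and the line joins the means. Gprin2 and Rptor are highest at 2 h, whereas Ccdc107 and Neurl1a are highest at 6 h.

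The 10 NSUN6-type members held the CTCCA motif, whose first base was the unconverted one. The 5 with the highest mean level are shown with the motif in capitals.
Sdc3: ggacacgtgtCTCCAaagtgc
Bag6: cggccaactcCTCCAcaggct
Slc25a23: gcccgcaggtCTCCAtggtgg
Tenm3: acgggcaataCTCCAagggcc
Hpcal4: cttgaagtctCTCCActttca
The 3′UTR site of Sdc3 (chromosome 4, position 130824055, plus strand), a neuronal syndecan, had 42.0% and 42.2% before KCl, 48.3% and 52.5% after 2 h, and 45.1% and 44.3% after 6 h. The 2 h libraries were above the others, by 8.30 points over 0 h (adjusted p = 1.85e-09, Fisher's exact test) and by 5.70 points over 6 h (a fall of -5.70 points, adjusted p = 3.33e-04). In Bag6, a chaperone gene, the CDS site (chromosome 17, position 35142787, plus strand) had 22.7% and 23.9% before KCl, 28.2% and 28.7% after 2 h, and 29.1% and 32.9% after 6 h. It rose by 5.15 points at 2 h (adjusted p = 0.00606) and by 7.70 points at 6 h (adjusted p = 2.36e-05). In Hpcal4, a neuronal calcium sensor, the 3′UTR site (chromosome 4, position 123193334, plus strand) had 14.5% and 9.4% before KCl, 21.6% and 25.4% after 2 h, and 13.9% and 12.1% after 6 h. It rose by 11.6 points at 2 h (adjusted p = 1.73e-05). Slc25a23, a mitochondrial carrier, ranged from 14.1% to 22.1%, Tenm3, a synaptic adhesion protein, from 13.7% to 24.9%, and neither passed in a comparison. Of 8 NSUN6-type members tested for 0 h vs. 2 h, 4 were higher, and of 7 for 2 h vs. 6 h, 1 was lower and 0 were higher. The shares were 47.3% higher and 35.8% lower over all members, and 5.51% and 3.6% over all positions, and nothing particular to the motif is read from so few sites.

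Several members lay in genes of the synapse. Of 31 synaptic genes in a fixed list, 7 held 9 members. Of the 7 that could be compared, 4 were higher at 2 h than at 0 h and 0 lower, and of the 7 compared between 0 h and 6 h, 4 were higher and 0 lower. Over all positions the shares higher were 5.51% and 6.32%, and over all members 47.3% and 27.9%, so nothing particular to synaptic genes is read from these counts. In Homer1, a postsynaptic scaffold gene and the only 1 of 20 immediate early genes with a member, 2 sites lay in the 5′UTR. At position 93303935 of chromosome 13, coverage was only 104 and 82 reads before KCl and reached 1216 and 818 reads after 2 h. The level there was 3.8% and 8.5% before KCl, 16.0% and 18.9% after 2 h, and 17.1% and 13% after 6 h. It was higher by 11.3 points at 2 h (adjusted p = 4.36e-04, Fisher's exact test) and by 8.90 points at 6 h (adjusted p = 0.00772). Without 0 h replicate 1 neither passed (8.95 and 6.55 points), and without 6 h replicate 1 the second did not (6.85 points). The other site had 3.1% and 16.7% at 0 h from 32 and 30 reads, and did not pass.

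At the presynaptic side, Syn1 encodes a synaptic vesicle phosphoprotein, and its CDS site (chromosome X, position 20865235, minus strand) was covered by 2915 to 4327 reads. The level was 7.5% and 9.5% before KCl, 13.5% and 13.2% after 2 h, and 13.7% and 10.7% after 6 h, with 0 h below the rest. The rise of 4.85 points at 2 h had an adjusted p of 1.01e-20 (Fisher's exact test). The CDS site of Rims1 (chromosome 1, position 22533684, minus strand), an active zone protein, had 9.5% and 9.1% before KCl, 14.9% and 17.2% after 2 h, and 16.9% and 16.2% after 6 h. It rose by 6.75 points at 2 h (adjusted p = 1.24e-04) and 7.25 points at 6 h (adjusted p = 1.18e-05). The NSUN6-type site of Syp (chromosome X, position 7644227, plus strand), a vesicle membrane protein, was between 9.4% and 12.7% in all libraries. It differed by -0.65 points at 2 h (adjusted p = 0.508), and passed as a difference of -2.30 points without 2 h replicate 2.

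The 3′UTR site of Grin1, a glutamate receptor subunit (chromosome 2, position 25291887, minus strand) ranged from 32.6% to 51.7% and passed in no comparison. Of the postsynaptic scaffold Shank3, a CDS site ranged from 5.9% to 12.4% and an intronic site was listed in 4 libraries, at 21.6% and 26.9% in those of 0 h.

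Of 25 genes of the neuronal cytoskeleton, 4 held 5 members, and 0 of the 3 that could be compared between 0 h and 6 h passed, which is too few to set against the 27.9% higher of all members and 6.32% of all positions. The CDS site of Ina (chromosome 19, position 47021948, plus strand), an intermediate filament of neurons, had 24.1% and 24.1% before KCl, 23.1% and 23.9% after 2 h, and 23.7% and 24.1% after 6 h from 4454 to 8784 reads. It thus varied by 1 point in all, and passed in no comparison. The CDS sites of Nefm, a neurofilament subunit, and Map1a, a microtubule-associated protein, passed the rule at 2 h only. In the 3′UTR of Map2, a dendritic microtubule-associated protein, 2 sites passed at 6 h only and were not listed in 0 h replicate 2. Of 15 genes for m5C writers, readers, and erasers, only Ybx3, a Y-box RNA-binding protein, held a member. Its CDS site (chromosome 6, position 131388170, minus strand) had 17.3% and 15.9% before KCl, 20.6% and 21.1% after 2 h, and 11.6% and 9.3% after 6 h, and was lower at 6 h than at 2 h by -10.4 points (adjusted p = 7.89e-07, Fisher's exact test). Its difference of -6.15 points from 0 h (adjusted p = 0.00635) did not pass without 0 h replicate 1 (-5.45 points) or 6 h replicate 2 (-5.00 points). The noncoding RNAs Meg3 and Miat held 1 member each. Meg3 ranged from 11.3% to 21.1% and Miat, with 16 to 84 reads, from 22.2% to 56.2%, and neither passed in a comparison. No mRNA of a ribosomal protein held a member.

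By time point, 77 members (29.8%) passed the rule at all 3, 66 at 2 h only, 36 at 6 h only, and 19 at 0 h only. This distribution follows from the levels that chose the sites and was not tested.

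A low unconverted share of cytosines next to a member follows in large part from the rule, which left out clustered positions. The other listed cytosines within 75 nt, passing positions left out, were unconverted at a median of 0.644% to 0.840% of reads per library, against 0.621% to 0.791% beside the sites with the guanine pair and 0.179% to 0.224% beside background cytosines. Only cytosines with an unconverted read are listed, which raises these shares. The members exceeded the sites with the pair in 6 of 6 libraries by a mean of 0.0538 points (exact sign flip test over libraries, two-sided, p = 0.0313, the smallest value 6 libraries allow). With neighbours covered by at least 50 reads, the difference was 0.00972 points (exact sign flip p = 0.781). With both sets limited to the high-confidence list of the study (218 members and 219 sites with the pair), an alternative chosen after seeing the data, it was 0.00364 points (exact p = 0.719). With only the members limited to that list, it was -0.0118 points (exact p = 0.375). At the 146 members compared between 0 h and 2 h, the median neighbour share was 0.485% and 0.613% before KCl and 0.629% and 0.567% after 2 h, from 122 to 131 members with listed neighbours per library. In 207 members the neighbours were under 5% in every library with a listed neighbour, and in 10 they were at 5% or more in every such library.

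Other bases were rare at members and at the sites with the guanine pair. The median share of reads with a base other than cytosine or thymine was 0% in both sets in all 6 libraries. With the reads of all sites pooled, the members differed from the sites with the pair by a mean of 0.0104 points, from -0.0159 to 0.0411 points per library (exact sign flip p = 0.375). Predicted pairing of the site in a 151-nt window at 70 °C had a median probability of 0.493 for 167 members within a single exon, 0.464 for 172 sites with the pair, and 0.484 for 1634 background cytosines. It was 0.0562 for the 5 NSUN6-type members that could be folded, which is too few to compare. Median guanine and cytosine content of the window was 57.6% around members and 52.3% around the background.

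The culture was checked by its listed cytosines. All 6 neuronal marker genes (Tubb3, Map2, Rbfox3, Snap25, Syt1, and Nefl) were listed in every library, with a median coverage of 119 to 16455 reads. All 5 astrocyte markers were listed too, at 17 to 3099 reads, as were 3 of 5 oligodendrocyte markers, 1 of 5 microglial ones, and 0 of 5 endothelial ones. Mag, Mog, Csf1r, Tmem119, P2ry12, Cldn5, Cdh5, and Tek were listed in no library. The part of astrocyte RNA in the levels was not tested.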

How the data were processed

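RNA BS-seq was performed on poly(A) RNA of 6 libraries. After bisulfite treatment, the authors trimmed reads, used meRanTK for alignment (GRCm38) and calling, and deposited raw read counts (coverage, unconverted reads, other bases) and the methylation level as a fraction of unconverted among converted and unconverted reads. Median coverage of listed cytosines was 324 to 480 reads per library, and of members 127 to 161 reads, which limits the differences that can be called. The members, gene lists, and tests were chosen with earlier results of these data known.

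The rule was applied to the counts as deposited. The filters of the study that need single reads were not repeated, and its list of sites was used only as a position list. Time points were compared at positions that passed at the time point left out, by Fisher's exact test on summed reads. The alternatives were limma on log2((methylated + 0.5)/(unmethylated + 0.5)), the Cochran-Mantel-Haenszel test and limma with a replicate block, other minimums, other site sets, and leaving out each replicate. p-values measure the spread of reads, or of 2 replicates per time point.

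Sites were named by rules: the 10 highest mean levels with 20 reads in all libraries, the 3 largest called rises and falls per comparison with groups that did not overlap, the 5 highest NSUN6-type sites, members in the gene lists, and the 3 positions on either side of the 10% level. Contexts were those deposited, and the reference had a cytosine at 3578 of 3578 positions checked. Members on chromosome 18 (11) are counted without their sequence, and 1 member of the synapse list is counted but not reported here. Segments came from GENCODE M21 and pairing from ViennaRNA 2.7.2. The other tools were limma 3.58.1 in R 4.3.3 for the linear models, scipy 1.17.1 for exact tests, pandas 2.3.3 with numpy 2.4.6 for tables, and matplotlib 3.10.9 for plots, in Python 3.11.15.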

Additional observations from a re-analysis of the deposited data

How the results depend on the processing

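The counts of called members were 69 (2 h against 0 h), 60 (6 h against 0 h), and 43 (6 h against 2 h), in which order values follow. Limma called 0, 0, and 0 of them, limma with the replicate block 16, 0, and 0, and limma over the isolated nuclear positions only, added after seeing the data, 32, 0, and 2. Calls of at least 10 points numbered 42, 18, and 28. The cause of the difference between tests was not tested. The Cochran-Mantel-Haenszel test with the replicate block gave 68, 63, and 45 calls. Leaving out 1 replicate gave 55 to 60, 49 to 52, and 29 to 42 calls; without 6 h replicate 1, 2 h vs. 6 h gave 29. Other coverage minimums and site sets stayed within 1.5 times. Deviations of same-numbered libraries had correlations of 0.108, 0.0122, and -0.173 over members. With 2 replicates per time point and counting error in each level, these cannot show whether the numbers pair the samples. With the numbers crossed, an alternative added after seeing the data, 2 h vs. 6 h gave 42 calls. The median level of the members kept its direction without 1 library, with 7.80 to 8.45, 2.30 to 3.90, and -6.35 to -4.55 points. Another measure, the median over members of the level differences within same-numbered libraries, averaged 6.83, 2.70, and -4.50 points. With levels averaged over replicates first, the median differences were 6.75, 2.60, and -2.70 points. The median difference from 0 h to 6 h was -0.45 points at the 20 members off the study's list. Members numbered 119 with a level of at least 20%. They numbered 2271 with minimums applied to summed replicates, where a position listed in only 1 replicate could pass on that library alone. The difference in neighbouring cytosines was 0.0435 to 0.0600 points without 1 library, where the smallest exact p is 0.0625, 0.00972 points with neighbours covered by 50 reads, 0.00364 points with both sets limited to the study's list, and reversed to -0.0118 points with only the members limited to it; the cause was not tested. The 5′UTR share was 8.39% with over 100 reads in both replicates, below its interval of 8.51% to 17.4%. Of 42 comparisons at named sites, 25 were called, and limma kept 0 of these 25 calls.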
